A study of Mus musculus with 2 samples.

Results

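Chromatin accessibility over 10 genes of the endothelium was described in kidneys of mouse embryos at E15.5. The genes were the transcription factors Sox7, Sox17, Sox18, Erg, Fli1 and Tal1, the receptors Kdr, Flt1 and Tek, and the ligand Vegfa. A peak of open chromatin was counted for a gene when it overlapped the gene body or the 2 kb upstream of it in the GENCODE M21 annotation of mm10 (GRCm38). Of 289587 peaks in both libraries, 175 met this rule, 96 of the 159560 called for Enl-WT and 79 of the 130027 for Enl-T1. Peaks of the libraries that overlapped by any base were joined, and 69 of the 110706 regions shared in this way lay over the 10 genes. Enl-WT embryos were Enl+/+ Wt1GFPCre/+ and Enl-T1 embryos were Enl flox-T1/+ Wt1GFPCre/+. The T1 allele of Enl (Mllt1), a reader of acetylated histones, carries a small in-frame insertion in the YEATS domain that is found in Wilms tumour. Both groups carried the Wt1GFPCre knock-in, which drives Cre from the Wt1 locus and inactivates that copy of Wt1, and by the study this Cre acts in the nephron and stromal lineages. Each group was 1 library, the number of embryos in a library was not given in the sources used here, and the peak counts do not read the mutation itself.

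Blood vessels enter and grow with the kidney as nephrons form, and the endothelium of each glomerulus is built beside podocytes that secrete Vegfa. Vegfa binds Kdr, its main signalling receptor, and Flt1, which binds the ligand tightly and limits how much of it reaches Kdr. Tek is the receptor for angiopoietins and steadies the vessel wall. In endothelial cells, the ETS factors Erg and Fli1, the SoxF factors Sox7, Sox17 and Sox18, and Tal1, a factor shared with blood progenitors, bind enhancers that are often placed in the introns of such genes.

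Single-nucleus ATAC-seq (snATAC-seq) reads where a transposase cuts open DNA in each nucleus. Of 9628 barcodes in Enl-WT, 9472 with 2000 to 100000 counts were kept as nuclei, and of 13376 in Enl-T1, 12635 were kept. Total depth was 138176616 and 110265593 counts. The study kept fewer nuclei after further filters that need the fragments and were not applied here. The median nucleus had 14789.5 counts for Enl-WT and 8753 for Enl-T1, and 149 barcode sequences occurred among the nuclei of both libraries (1.57% and 1.18%). Nuclei were clustered with the regions of the 10 genes left out. One cluster, cluster 6, was named endothelial-like, with all 10 endothelial markers raised. It held 710 nuclei of Enl-WT (7.50%, interval 6.97 to 8.04%) and 508 of Enl-T1 (4.02%, 3.68 to 4.38%). In it the 10 endothelial markers, none of which is among the 10 genes described, summed to 1109 CPM (counts scaled to 1000000 counts in shared regions) for Enl-WT and 1082 for Enl-T1. Over all nuclei the endothelial list summed to 328 and 300 CPM. The podocyte list summed to 479 and 474 CPM in the endothelial-like nuclei, against 504 and 484 over all nuclei. The stroma list summed to 132 and 139, against 244 and 268. The erythroid list summed to 160 and 186, against 185 and 174, and the immune list to 107 and 124, against 111 and 113. Alas2 and Tyrobp were at 0 in the endothelial-like nuclei but also over all nuclei, so their absence does not describe this class. In Enl-WT, 6 of 9 stroma, 4 of 8 erythroid and 4 of 8 immune markers were above 5 CPM in the endothelial-like nuclei. Their part in the results was not tested. Intervals are 95% intervals that cover counting error only, so no difference between the libraries could be set against replicate spread, and none was tested.

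The regions that carried most of the endothelial signal lay mainly in introns and near exons. The sequences below are the central 300 bases of 5 shared regions with log2 ratios of endothelial-like to other nuclei of 3.63 or more in each library, from 5 different genes, and they show which letters recur in them. They were read from the RefSeq GRCm38.p6 genome, plus strand, 5′ to 3′. Capitals mark matches on either strand to an ETS core (CAGGAA), its extended FOX:ETS form (AACAGGAA, which contains the ETS letters), a SOX core (ACAATG) or a GATA core (AGATAA). The last of the 6 lines, from an intron of Tek, is shown for contrast because this region was not higher in endothelial-like nuclei.
Erg intron, chr16:95463820-95464119: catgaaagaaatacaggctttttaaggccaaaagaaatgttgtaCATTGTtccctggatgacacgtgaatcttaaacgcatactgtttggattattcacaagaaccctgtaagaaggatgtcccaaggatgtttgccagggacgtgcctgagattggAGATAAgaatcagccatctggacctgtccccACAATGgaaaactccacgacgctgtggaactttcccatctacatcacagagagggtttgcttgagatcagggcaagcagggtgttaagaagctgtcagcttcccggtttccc
Fli1 intron, chr9:32504128-32504427: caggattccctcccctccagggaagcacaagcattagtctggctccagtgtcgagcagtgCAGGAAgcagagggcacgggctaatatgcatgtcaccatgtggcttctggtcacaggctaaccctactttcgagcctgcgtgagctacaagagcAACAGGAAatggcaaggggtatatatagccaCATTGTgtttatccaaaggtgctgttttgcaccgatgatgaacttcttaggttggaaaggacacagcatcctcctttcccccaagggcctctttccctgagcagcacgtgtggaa
Kdr, chr5:75974676-75974975: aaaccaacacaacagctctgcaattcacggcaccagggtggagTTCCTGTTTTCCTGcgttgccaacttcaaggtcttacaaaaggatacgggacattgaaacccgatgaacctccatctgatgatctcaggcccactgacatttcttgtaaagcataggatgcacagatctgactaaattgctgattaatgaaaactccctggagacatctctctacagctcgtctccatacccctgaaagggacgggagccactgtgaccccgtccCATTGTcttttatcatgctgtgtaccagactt
Flt1 intron, chr5:147657900-147658199: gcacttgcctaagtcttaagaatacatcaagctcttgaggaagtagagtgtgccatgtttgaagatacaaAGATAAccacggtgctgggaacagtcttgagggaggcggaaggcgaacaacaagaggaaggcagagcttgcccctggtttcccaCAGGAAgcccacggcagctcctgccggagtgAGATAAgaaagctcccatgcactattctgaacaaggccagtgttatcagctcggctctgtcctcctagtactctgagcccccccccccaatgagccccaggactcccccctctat
Tek intron, chr4:94746410-94746709: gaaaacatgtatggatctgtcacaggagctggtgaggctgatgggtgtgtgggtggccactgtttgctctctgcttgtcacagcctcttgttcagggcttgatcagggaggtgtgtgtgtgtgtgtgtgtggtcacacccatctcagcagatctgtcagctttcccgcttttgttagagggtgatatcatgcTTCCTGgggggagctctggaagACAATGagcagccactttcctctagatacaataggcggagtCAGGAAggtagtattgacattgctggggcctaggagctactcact
Tek intron, contrast, chr4:94752533-94752832: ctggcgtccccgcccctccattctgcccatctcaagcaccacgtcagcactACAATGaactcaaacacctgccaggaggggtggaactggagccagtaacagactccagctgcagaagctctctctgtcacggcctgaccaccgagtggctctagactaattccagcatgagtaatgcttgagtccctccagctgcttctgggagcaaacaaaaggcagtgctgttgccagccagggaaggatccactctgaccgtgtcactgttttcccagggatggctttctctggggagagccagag

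The Erg window held 2 SOX matches and 1 GATA match and no ETS match. The Fli1 and Kdr windows each held 2 ETS matches, 1 of them in the FOX:ETS form, and 1 SOX match. The Flt1 window held 1 ETS and 2 GATA matches, and the Tek window 2 ETS matches and 1 SOX match. The contrast window of Tek held 1 SOX match and no ETS match. A match describes the letters only and is not a measured binding site.

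Across the 69 shared regions of the 10 genes, 25 were at least 4-fold higher in endothelial-like nuclei than in the other nuclei in both libraries, a size that 3.94% of all shared regions reached in either library taken alone. An ETS match was present in 18 of these 25 windows (72%) and in 17 of the other 44 (38.6%). Over all shared regions with a window, ETS matches were found in 69.3% of the 3428 that were 4-fold higher in endothelial-like nuclei and in 33.8% of the 107232 others, so the share in the 25 regions was close to that of endothelial regions in general. SOX matches were present in 10 of the 25 windows (40%) and 8 of the 44 (18.2%), against 24.5% and 12.6% over all regions. GATA matches were present in 8 of the 25 (32%) and 6 of the 44 (13.6%), against 15.0% and 13.4%. The FOX:ETS form was found in 3 of the 25 and 2 of the 44, against 12.2% and 3.09%. The counts in the 25 regions are small and were not tested.

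**Figure D1:**
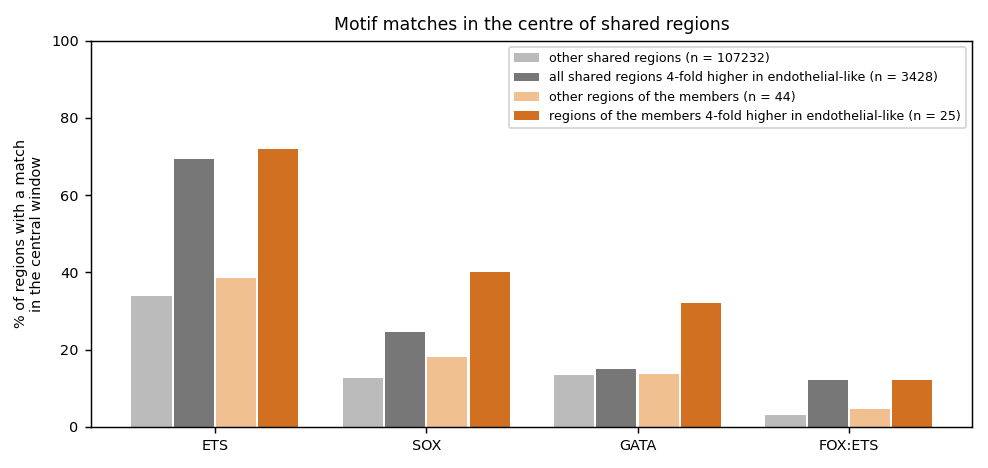
Share of shared regions whose central 300 bases hold a match to each core on either strand, for the regions of the 10 genes and for all shared regions, split by whether the region was at least 4-fold higher in endothelial-like nuclei in both libraries. ETS matches stand at 72% and 69.3% in the regions that were higher in endothelial-like nuclei, and at 38.6% and 33.8% in the others.

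Promoters were read in the same way for the genes in the RefSeq promoter table, which held 6 of the 10 genes with 10 start sites. The 250 bases before 3 starts are shown on the strand of the gene, because the starts of Tek and Erg were endothelial and that of Vegfa was open in every large class. The hypoxia core ACGTG was searched here and in the region windows above, where it was not put in capitals.
Tek promoter, chr4:94739039-94739288, plus strand: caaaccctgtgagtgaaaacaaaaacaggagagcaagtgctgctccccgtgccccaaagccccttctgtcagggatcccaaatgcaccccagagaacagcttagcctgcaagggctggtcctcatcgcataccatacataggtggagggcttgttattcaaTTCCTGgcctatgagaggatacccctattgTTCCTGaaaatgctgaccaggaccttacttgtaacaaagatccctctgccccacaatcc
Erg internal promoter, chr16:95459349-95459598, minus strand: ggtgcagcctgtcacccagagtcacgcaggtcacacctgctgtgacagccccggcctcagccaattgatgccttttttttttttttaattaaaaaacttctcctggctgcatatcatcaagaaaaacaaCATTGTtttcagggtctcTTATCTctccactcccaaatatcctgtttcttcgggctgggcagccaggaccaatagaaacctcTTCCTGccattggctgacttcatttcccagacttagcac
Vegfa promoter, chr17:46032378-46032627, minus strand: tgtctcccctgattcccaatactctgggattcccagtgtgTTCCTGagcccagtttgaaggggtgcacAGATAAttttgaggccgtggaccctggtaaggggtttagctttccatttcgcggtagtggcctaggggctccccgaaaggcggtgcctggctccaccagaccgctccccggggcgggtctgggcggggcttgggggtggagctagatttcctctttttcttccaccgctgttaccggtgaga

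The Tek window held 2 ETS matches. The internal Erg promoter held 1 ETS, 1 SOX and 1 GATA match, and the Vegfa window 1 ETS and 1 GATA match. ACGTG was in none of these 3 windows, which says nothing of sites outside them. The second Vegfa start in the table (chr17:46025164-46025413), not printed because 218 of its 250 bases overlapped an exon, held 1 match. Among the region windows above, that of Erg held 3 ACGTG matches, that of Fli1 2 and the contrast window of Tek 1, and the others held none. Each strand was counted, so CACGTG, which reads alike on both, gives 2 matches. Both Fli1 matches and 2 of the 3 Erg matches are of this kind, 1 CACGTG in each window. Over the 32841 promoter windows in the table, 25.7% held an ETS match, 10.7% a SOX match, 9.99% a GATA match and 16.6% the hypoxia core. The windows of Kdr and Flt1 and the main start of Erg held none of the ETS, SOX and GATA cores.

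Within each library, 9 of the 10 genes were more accessible in endothelial-like nuclei than in all other nuclei, and Vegfa was level. The log2 ratio had a median of 2.03 for Enl-WT and 2.15 for Enl-T1, against 0.02 and 0.04 over all genes. At least 4-fold more signal was found for 5 of the 10 genes for Enl-WT and 6 for Enl-T1, where 0.636% and 0.678% of all genes passed that size. At least 1.5-fold more was found for 9 genes in each library, where 7.74% and 8.54% of all genes did. The genes were chosen as endothelial genes and the nuclei were clustered on their chromatin, so these ratios are a description.

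Per kb of peak, the level in endothelial-like nuclei was highest for Sox7, at 43.8 CPM per kb in Enl-WT, and lowest for Erg, at 12.6. Among the SoxF factors, which act together in arterial and lymphatic vessels, Sox7 also had the highest ratio. Sox7 had 1 shared region, at its start site (chr14:63943162-63944139), with 42.8 CPM in the endothelial-like nuclei of Enl-WT and 39.0 in those of Enl-T1, against 5.82 and 5.96 in the other nuclei. Its log2 ratio to the other nuclei was 2.88 (2.62 to 3.14) for Enl-WT and 2.71 (2.33 to 3.08) for Enl-T1. Sox18, which is mutated in a syndrome of lymphatic and hair defects, had 48.7 and 45.8 CPM over 2 regions and ratios of 2.45 and 2.30. Sox17, a factor of arteries that is also made in endoderm, had 54.2 and 59.5 CPM over 3 shared regions and ratios of 1.88 and 2.18. These values leave out 2 Sox17 peaks called in Enl-WT alone, with 382 endothelial counts beside the 496 of the shared regions. The larger of these peaks (chr1:4493163-4494181) held 307 counts and had a ratio of 2.97. The start-site region of Sox17 (chr1:4497109-4497980) also covers the start of the predicted gene Gm37587, so its signal cannot be given to Sox17 alone.

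Erg had 234 CPM in the endothelial-like nuclei of each library, against 59.3 in the other nuclei of Enl-WT and 54.2 in those of Enl-T1. Its signal was unevenly placed along a gene of 227 kb. The region nearest the annotated start of the gene (chr16:95585085-95586216) was close to level between classes, with log2 ratios of 0.13 and 0.53. An internal start site 127 kb into the gene (chr16:95459039-95460124) had ratios of 4.02 and 4.57, with 410 counts in the endothelial-like nuclei of Enl-WT and 192 in those of Enl-T1. The intron region beside it, whose sequence is given above (chr16:95463410-95464529), had the most counts of the gene away from a start site, 449 and 187, and ratios of 5.22 and 4.87. Endothelial-like nuclei supplied 75.1% of all counts of this region for Enl-WT and 53.6% for Enl-T1, although they were 7.50% and 4.02% of the nuclei.

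Fli1, the close relative of Erg that also acts in blood cells, had 211 and 190 CPM in endothelial-like nuclei. Its preference for them was smaller, with ratios of 1.55 (1.44 to 1.65) and 1.32 (1.16 to 1.47). Stroma-like nuclei followed with 117 and 110 CPM, and immune-like nuclei with 113 and 110 CPM on 106 and 120 counts. Per kb of peak, stroma-like and immune-like nuclei could not be ordered within their intervals, at 8.81 and 8.46 CPM per kb in Enl-WT and 9.37 and 9.41 in Enl-T1. Its endothelial signal lay in introns, with 394 and 152 counts in the most counted region (chr9:32505847-32506845) and 378 and 162 in the region whose sequence is shown (chr9:32503783-32504772), where the ratios were 3.63 and 3.74. The region near the start of Fli1 (chr9:32540015-32540935) was not higher in endothelial-like nuclei, at 0.33 for Enl-WT and -0.39 for Enl-T1.

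Tal1 is needed for the first blood cells and for vessel remodelling. It had 1 shared region, over an exon 6.94 kb from the start (chr4:115062875-115063854), with 27.8 and 23.0 CPM in endothelial-like nuclei and ratios of 1.19 (0.90 to 1.46) and 0.91 (0.44 to 1.34). The highest level was in erythroid-like nuclei, with 49.1 CPM for Enl-WT and 134 CPM for Enl-T1, but these rest on 10 and 20 counts from 25 and 22 nuclei. The erythroid-like interval per kb of peak overlapped the endothelial-like one in Enl-WT and lay above it in Enl-T1.

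Kdr was among the most endothelial of the 10 genes, with 179 CPM for Enl-WT and 176 for Enl-T1 over the class, where the remaining nuclei had 24.8 and 26.0. The ratios were 2.85 (2.73 to 2.98) and 2.76 (2.58 to 2.93). Its start site (chr5:75978064-75978933) was open outside the endothelium too, with ratios of 1.61 and 1.67, whereas the region 3.63 kb into the gene whose sequence is shown (chr5:75974353-75975298) had ratios of 4.63 and 4.50. The most counted region, over an exon 44.6 kb from the start (chr5:75933359-75934303), held 538 and 195 counts and had ratios of 4.72 and 4.47.

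Flt1 had 292 CPM for Enl-WT and 264 for Enl-T1, summed over 16 shared regions. The ratios to the other nuclei were 2.08 (1.99 to 2.17) and 1.83 (1.70 to 1.97). The start site (chr5:147725352-147726444) was 2.68 and 2.04 and the most counted region away from it (chr5:147657592-147658508) was 4.92 and 4.24. Tek had 138 and 122 CPM and ratios of 2.60 (2.46 to 2.74) and 2.55 (2.34 to 2.75), with its start site (chr4:94738809-94739766) at 2.95 and 2.44 and the region 7.27 kb into the gene (chr4:94746077-94747042) at 4.72 and 5.16. Outside the endothelium, Tek was highest of the main classes in stroma-like nuclei, at 39.0 and 39.2 CPM. It was lowest of the large classes in ureteric epithelium-like nuclei, at 8.04 and 6.29 CPM. At a finer clustering (resolution 2), 341 nuclei of Enl-WT were podocyte-like and had 35.3 CPM over Tek. Per kb of peak they had 6.18 (4.78 to 7.87), which overlapped the 6.82 (6.34 to 7.32) of stroma-like nuclei of Enl-WT.

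Vegfa, the ligand, showed no endothelial preference. It had 75.3 CPM in the endothelial-like nuclei of Enl-WT and 82.0 in those of Enl-T1, against 73.3 and 79.1 in the others, and ratios of 0.04 (-0.12 to 0.20) and 0.05 (-0.18 to 0.28). Stroma-like nuclei had 82.5 and 87.9 CPM, ureteric epithelium-like nuclei 72.7 and 75.4, and nuclei of clusters 0 and 2, described further on, 66.6 and 72.3. The podocyte-like nuclei of Enl-WT at resolution 2 had 68.5 CPM. All 3 regions of Vegfa, 2 at start sites and 1 in an intron, had ratios between -0.40 and 0.57. Open chromatin over a ligand does not say in which cells it is made.

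**Figure D2:**
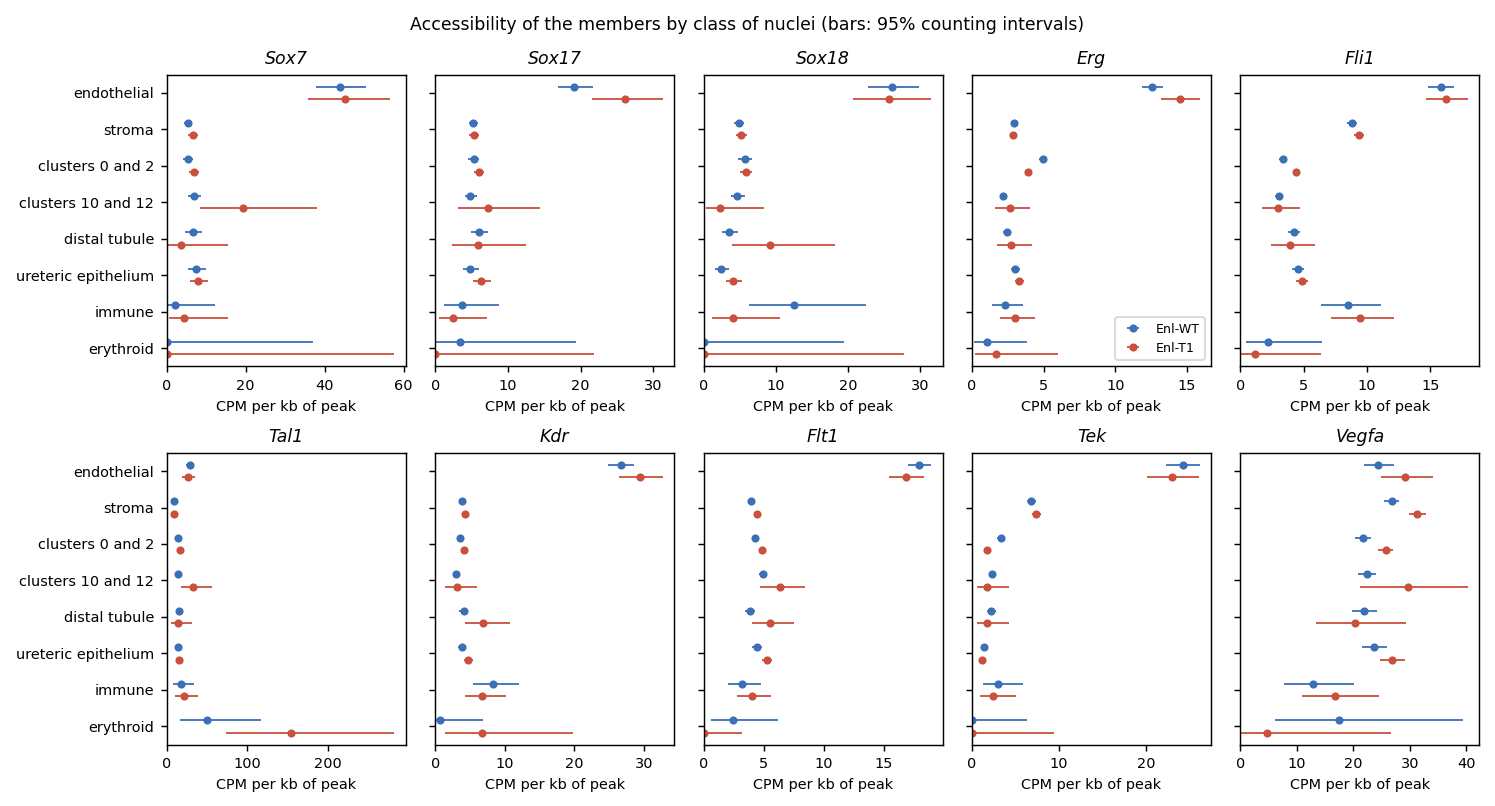
Accessibility of each gene, as CPM per kb of peak (linear axis, scaled to each gene), in 8 classes of nuclei, 2 of them given by cluster number, with Enl-WT in blue and Enl-T1 in red; points are library sums and bars 95% counting intervals. Endothelial-like nuclei lie above every other class for Sox7, Sox17, Sox18, Erg, Fli1, Kdr, Flt1 and Tek, Vegfa is similar across the large classes, and Tal1 is highest in the few erythroid-like nuclei.

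**Figure D3:**
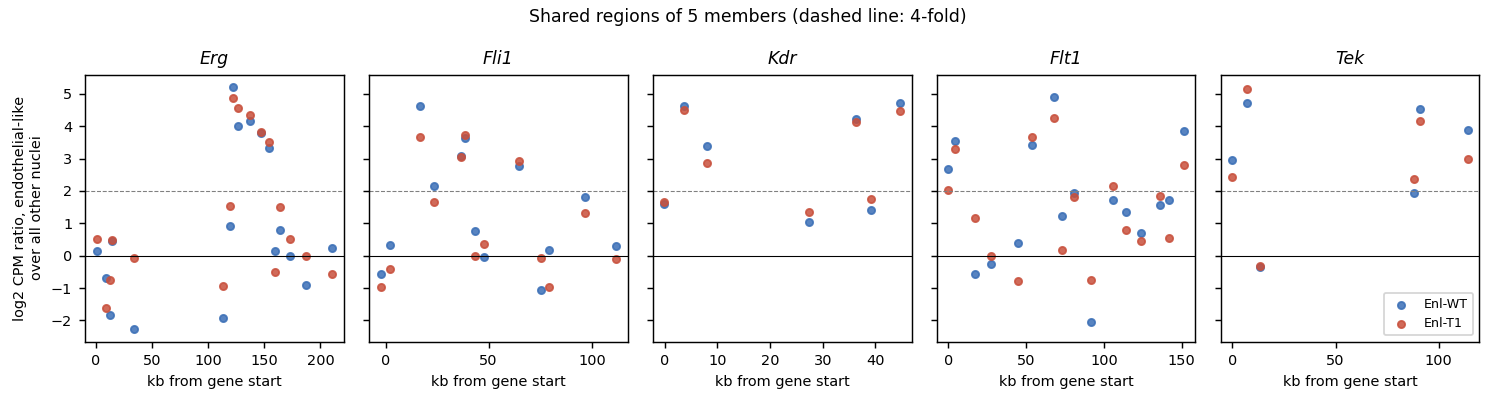
Each shared region of Erg, Fli1, Kdr, Flt1 and Tek by its distance in kb from the start of the gene (horizontal axis) and its log2 CPM ratio of endothelial-like to other nuclei (vertical axis), in Enl-WT (blue) and Enl-T1 (red). The Erg regions above the dashed 4-fold line lie between 122.6 and 154.0 kb into the gene, while the region at 0.942 kb stands at 0.13 and 0.53.

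The genes were also counted nucleus by nucleus. After each nucleus was thinned to 4000 counts, which left 699 of 710 and 479 of 508 endothelial-like nuclei, a count over Flt1 was found in 58.1% of them for Enl-WT and 53.4% for Enl-T1, against 21.5% and 22.1% of ureteric epithelium-like nuclei, a class that should lack the gene. Kdr was found in 43.1% (39.4 to 46.8%) and 38.4% (34.0 to 42.9%) against 9.83% and 9.06%, and Tek in 35.1% (31.5 to 38.7%) and 29.0% (25.0 to 33.3%) against 2.63% and 1.84%. Vegfa was found in 21.9% and 20.5% against 19.1% and 20.4%, so no difference between these classes was detectable. The unthinned shares for Tek were 55.2% and 36.0%, with median depths of 12859.5 and 7558.5 counts in shared regions per endothelial-like nucleus.

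The regions called in 1 library alone differed in kind between the libraries. In Enl-WT, 27 of the 96 peaks touched no peak of Enl-T1 (28.1%), near the 30% of all Enl-WT peaks. In Enl-T1, 11 of 79 touched none of Enl-WT (13.9%, against 13.4% of all). Of the 25 peaks of Enl-WT alone with at least 100 counts, 12 were at least 4-fold higher in endothelial-like nuclei, where 8.41% of such peaks over the genome were, and of the 11 of Enl-T1 alone none was, where 1.31% were. The most counted peak of Enl-WT alone lay over an exon of Sox17 (chr1:4493163-4494181) with 307 endothelial counts, and that of Enl-T1 alone lay near the start of Tal1 (chr4:115056848-115057738) with 113. The endothelial-like nuclei of Enl-T1 held 3952645 counts in shared regions against 9149928 in Enl-WT, and the part of this depth in which peaks were called was not tested.

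Between the libraries, none of the 10 genes differed by 1.5-fold in endothelial-like nuclei, where 3.59% of all genes did. The log2 ratio of Enl-T1 to Enl-WT had a median of -0.11 over the 10 genes and of -0.01 over all genes, with 10th and 90th percentiles of -0.30 and 0.30. Sox7 was at -0.14 (-0.54 to 0.25), Sox17 at 0.13 (-0.20 to 0.46) and Sox18 at -0.09 (-0.46 to 0.27). Erg was at -0.00 (-0.16 to 0.16), Fli1 at -0.15 (-0.32 to 0.03) and Tal1 at -0.27 (-0.79 to 0.23). Among the receptors, Kdr was at -0.03 (-0.21 to 0.16), Flt1 at -0.15 (-0.30 to 0.0003) and Tek at -0.19 (-0.41 to 0.03), and the ligand Vegfa was at 0.12 (-0.16 to 0.40). Each of these intervals included 0, that of Flt1 only just. Across 14 settings of the processing Flt1 was below 0 in all 14, and its interval left out 0 in 9 of them. The intervals of Tek and Fli1 did so in 4 each, and those of Erg and Sox17 in 2 each, once on each side of 0. Those of Sox7 and Vegfa left it out in 1 setting each. With every peak of each library counted, Sox17 was at -0.55. The genes below 0 numbered 8 of 10, with Erg at -0.001, where 51.2% of all genes were below 0. Peaks were narrower in Enl-T1, and per kb of peak 4 of the 10 genes were below 0, namely Sox18, Tal1, Flt1 and Tek, against 28.2% of all genes. Per kb, Sox17 was at 0.45 (0.12 to 0.77) and Erg at 0.20 (0.04 to 0.36), where the median of all genes was 0.14.

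**Figure D4:**
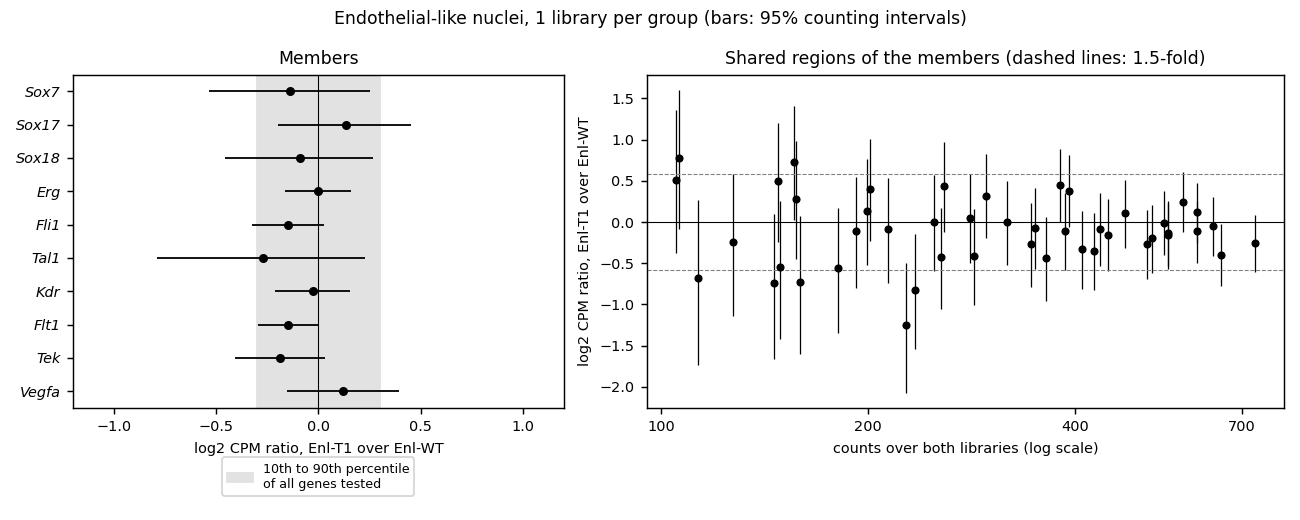
Log2 CPM ratio of Enl-T1 to Enl-WT in endothelial-like nuclei. Left, the 10 genes with 95% counting intervals, over a grey band from the 10th to the 90th percentile of all genes (-0.30 to 0.30), within which all 10 points lie; right, 46 shared regions with at least 100 counts, by their counts on a log axis, with dashed lines at 1.5-fold.

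Over all nuclei of each library the values were lower for several genes, beside a lower share of endothelial-like nuclei in Enl-T1. Kdr had 36.3 CPM over the whole Enl-WT library and 31.7 over that of Enl-T1, a log2 ratio of -0.20 (-0.29 to -0.10), against -0.03 within the endothelial-like class. Tek had 31.4 and 24.7 CPM, a ratio of -0.35 (-0.45 to -0.25), and Erg 72.4 and 61.1 CPM, a ratio of -0.25 (-0.31 to -0.18). In the nuclei outside the endothelial-like class, Kdr was at 0.07 (-0.04 to 0.18). Tek was at -0.13 (-0.25 to -0.01) there and Erg at -0.13 (-0.20 to -0.06). The ratios over all nuclei per kb of peak were -0.03 (-0.12 to 0.06) for Kdr, -0.24 (-0.34 to -0.13) for Tek and -0.04 (-0.11 to 0.03) for Erg. The interval of Tek alone among these 3 still left out 0. The median of all genes per kb was 0.10, with 25.4% of them below 0, and all 3 intervals lay below that median.

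Region by region, 46 of the 69 shared regions had at least 100 counts in endothelial-like nuclei. Of these, 5 were lower in Enl-T1 by 1.5-fold or more and 2 were higher, where 7.75% and 4.91% of all such regions were. The lowest lay over an exon of Tek, 114 kb from the start (chr4:94852741-94853941), with 192 counts for Enl-WT and 35 for Enl-T1, or 21.0 and 8.85 CPM, a log2 ratio of -1.24 (-2.07 to -0.50). The next was in an intron of Flt1 (chr5:147574236-147575126), with 188 and 46 counts and a ratio of -0.82 (-1.55 to -0.15). Both were over 4-fold higher in endothelial-like than in other nuclei of both libraries. Per kb of peak they were at -1.09 (-1.92 to -0.35) and -0.74 (-1.47 to -0.07). The other 3 were the region near the start of Fli1 at -0.74, a further intron region of Flt1 (chr5:147583623-147584515) at -0.72 and an intron region of Fli1 (chr9:32445419-32446505) at -0.68, and their intervals included 0.

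At the other end, an intron region of Fli1 (chr9:32494881-32495801) was at 0.77 (-0.08 to 1.61) and an exon region of Tek (chr4:94826872-94827870) at 0.73 (0.03 to 1.41). The next were an intron region of Erg (chr16:95466033-95467188) at 0.51 and regions of Flt1 at 0.49 (chr5:147619867-147620728) and 0.45 (chr5:147589566-147590817). The peak of the last was 910 bp wide for Enl-WT and 1249 bp for Enl-T1, and per kb its ratio was -0.01 (-0.45 to 0.43). Per kb the Fli1 region was at 0.87 (0.02 to 1.71), that of Tek at 0.69 (-0.006 to 1.37) and that of Erg at 0.94 (0.06 to 1.79). The first Flt1 region was at 0.47 (-0.26 to 1.18) per kb. On this scale the interval of Tek included 0, and those of Fli1 and Erg left it out. Lower and higher regions thus occurred within the same genes. The ends of this order were chosen for their values.

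Start sites stood on both sides of 0. Flt1 had 491 counts for Enl-WT and 161 for Enl-T1, a log2 ratio of -0.40 (-0.78 to -0.03), and Tek 193 and 62, a ratio of -0.43 (-1.06 to 0.17). Kdr had 380 and 194 counts and a ratio of 0.24 (-0.13 to 0.60), the internal start of Erg 0.12 (-0.25 to 0.47), Sox18 (chr2:181671159-181672063) -0.08 (-0.53 to 0.35) and Sox17 0.40 (-0.23 to 1.01). Vegfa (chr17:46032143-46033080) had 251 and 141 counts and a ratio of 0.38 (-0.06 to 0.81), while its intron region (chr17:46027270-46028318) was at -0.43 (-0.96 to 0.07). Of these start sites, Flt1 had the one interval that left out 0. On the scale per kb of peak Flt1 was at -0.37 (-0.75 to -0.003), and the intervals of 3 more left out 0 on the other side. Sox17 was at 0.85 (0.22 to 1.46), the internal start of Erg at 0.43 (0.06 to 0.78) and Vegfa at 0.50 (0.05 to 0.93). The median of all regions per kb in this class was 0.11, with 37.3% below 0. The intervals of Erg and Vegfa included that median, while that of Sox17 lay above it and that of Flt1 below it.

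The most counted regions away from the start sites were mostly near or below 0. Erg was at -0.05, Fli1 at -0.16, Tal1 at -0.27, Kdr at -0.25, Flt1 at -0.11 and Tek (chr4:94829667-94830673) at -0.26. Sox17 (chr1:4491551-4492639) was at -0.00 and Sox18 (chr2:181669894-181670969) at -0.11. Each of these intervals included 0. Per kb, Kdr was at -0.35 (-0.70 to -0.01).

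Summed over the 25 regions that were 4-fold higher in endothelial-like nuclei, the signal was 844 CPM for Enl-WT and 753 CPM for Enl-T1, a log2 ratio of -0.16 (-0.25 to -0.08). These regions held 64.7% of the endothelial counts of the 10 genes in Enl-WT and 18.7% of those of the other nuclei. Of the 25, 21 were below 0, and their median was -0.14. The median over all 3390 regions of this kind with enough counts was -0.04, with 10th and 90th percentiles of -0.46 and 0.41. The other 44 regions summed to 460 and 482 CPM, a ratio of 0.07 (-0.04 to 0.18). Per kb of peak the sum over the 25 regions was at 0.03 (-0.06 to 0.12) and that over the other 44 at 0.19 (0.08 to 0.31). Per kb, 11 of the 25 were below 0, and the median over the 3390 regions of this kind was 0.11.

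The nephron lineage, in which the Cre acts, was compared by cluster number. Cluster 2 held 1835 Enl-WT and 85 Enl-T1 nuclei, and cluster 0 held 25 and 4186. Both scored highest for progenitor markers, but the leading genes of cluster 2 included Umod, a marker of the distal tubule, and no progenitor marker was among the leading genes of either. Cluster 0 of Enl-T1 was set against cluster 2 of Enl-WT for the 10 genes, and 1 of them, Tek, was lower by 1.5-fold, where 2.51% of all genes were. None was higher by that size, where 1.93% were. Since the clusters are nearly separate by library, a difference between cell states and one between genotypes cannot be told apart. Clusters 10 and 12 scored highest for early nephron markers, but the leading genes of cluster 12 included Slc22a12, Slc3a1 and Slc22a6, transporters of the proximal tubule, so they too go by number.

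Tek had 494 counts in cluster 2 of Enl-WT and 341 in cluster 0 of Enl-T1, or 19.0 and 8.62 CPM, a log2 ratio of -1.14 (-1.43 to -0.85). Most of this came from 1 intron region 13.4 kb into the gene (chr4:94752230-94753136), the contrast sequence printed above, with 339 and 127 counts, or 13.0 and 3.21 CPM, a ratio of -2.02 (-2.46 to -1.60). The same region was level between the libraries in stroma-like nuclei, at 22.1 and 22.5 CPM, a class to which the libraries gave partly different clusters. In endothelial-like nuclei the region had 10.2 and 8.60 CPM, a ratio of -0.24 (-1.14 to 0.59). Its peak was 897 bp wide for Enl-WT and 907 bp for Enl-T1.

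Erg was also lower in cluster 0 of Enl-T1, with 2391 counts against 2465 at greater depth, or 92.0 CPM in cluster 2 of Enl-WT and 62.3 CPM in cluster 0, a log2 ratio of -0.56 (-0.68 to -0.45). Here 12 of the 13 regions of Erg with at least 100 counts were below 0, and 11 per kb of peak, where 48.2% and 36.0% of all regions compared in this way were. The most extreme was an intron region 113 kb into the gene (chr16:95472501-95473718), with 353 and 208 counts and a ratio of -1.37 (-1.73 to -1.01). This region was almost closed in endothelial-like nuclei, with 10 and 6 counts, and its ratio in stroma-like nuclei was 0.10 (-0.78 to 0.99). Fli1 was higher in cluster 0, at 44.7 and 51.8 CPM, a ratio of 0.21 (0.07 to 0.36), and Flt1 was at 0.12 (0.002 to 0.24). The intervals of the other 6 genes included 0, with Vegfa at 0.12 (-0.00 to 0.24).

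**Figure D5:**
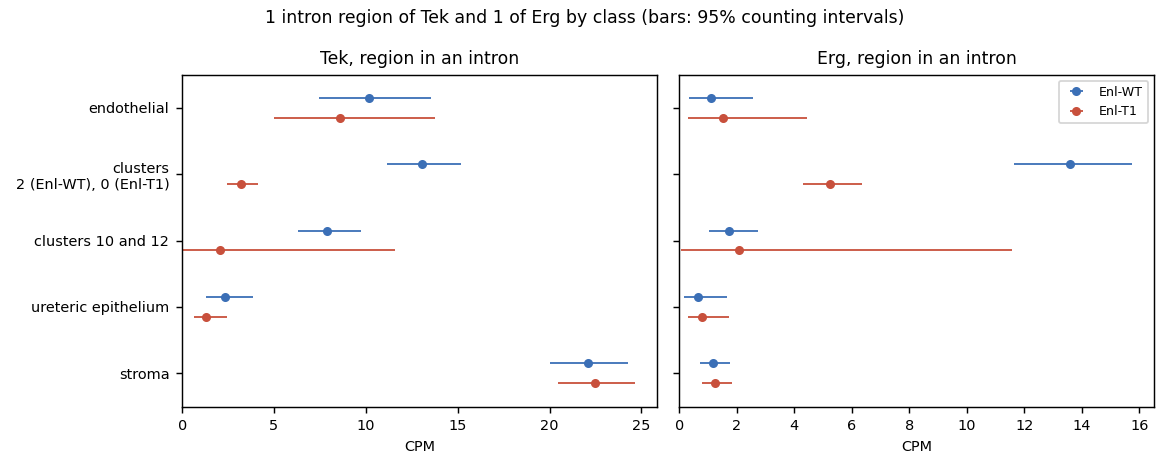
CPM of an intron region of Tek (left) and an intron region of Erg (right) in classes of nuclei, with Enl-WT in blue, Enl-T1 in red and 95% counting intervals. Between cluster 2 of Enl-WT and cluster 0 of Enl-T1, Tek stood at 13.0 and 3.21 CPM and Erg at 13.6 and 5.26 CPM, while the libraries overlapped in stroma-like and endothelial-like nuclei.

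In stroma-like nuclei, where the Cre also acts, Tek was at 0.01 (-0.14 to 0.16), Kdr at -0.02 (-0.20 to 0.16) and Vegfa at 0.09 (-0.01 to 0.19). Sox17 was at -0.30 (-0.55 to -0.05), Erg at -0.21 (-0.34 to -0.08) and Fli1 at -0.10 (-0.18 to -0.01). Per kb of peak none of these 3 intervals lay below 0: Sox17 was at 0.01 (-0.24 to 0.27), Erg at -0.01 (-0.13 to 0.12), and Fli1 turned to 0.09 (0.005 to 0.18), where the median of all genes was 0.14. None of the 10 genes reached 1.5-fold in this class, where 2.04% of all genes did. Different clusters supplied most of the class in the libraries: clusters 1, 3 and 5 were mixed, cluster 7 held 4 Enl-WT and 1145 Enl-T1 nuclei, cluster 8 held 835 and 240, and cluster 13 held 36 and 601. Fli1 varied between them, with 67.3 CPM in cluster 13 and 144 CPM in cluster 7 of Enl-T1. Tek varied the other way, with 59.2 CPM in cluster 13 and 30.9 CPM in cluster 7 of Enl-T1.

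Other genes of Vegf and angiopoietin signalling were described from a list of 28, of which 27 had enough counts. In endothelial-like nuclei, 1 was higher in Enl-T1 by 1.5-fold and 1 was lower, where 1.91% and 1.69% of all genes were, and the median ratio was -0.01. Vegfd, a ligand of the lymphatic receptor Flt4, had 16.6 and 25.0 CPM, a ratio of 0.59 (0.05 to 1.13). Its most counted region (chrX:164381613-164382508), with 133 and 83 counts, was at 0.53 (-0.07 to 1.11), and at 0.51 (-0.09 to 1.09) per kb. None of its regions taken alone had an interval that left out 0. Vegfd was not an endothelial signal, with ratios to the other nuclei of -0.70 (-1.05 to -0.36) and -0.22 (-0.66 to 0.19). Vegfb, a ligand of Flt1, had 21.0 and 12.4 CPM, a ratio of -0.76 (-1.46 to -0.11), but its peak was 1026 bp for Enl-WT and 776 bp for Enl-T1, and per kb the ratio was -0.36 (-1.06 to 0.30). Tie1, the partner receptor of Tek, was the most endothelial of the list, with ratios to the other nuclei of 5.54 and 5.89.

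Of 24 further endothelial transcription factors, 23 had enough counts, none was higher in Enl-T1 by 1.5-fold and 1 was lower, with a median of 0.01. Hhex, a homeobox factor of early endothelium and liver, had 88.4 and 36.9 CPM, a ratio of -1.26 (-1.64 to -0.90). Its peak was 1915 bp wide for Enl-WT and 910 bp for Enl-T1, and per kb the ratio was -0.19 (-0.57 to 0.18). Lyl1, the close relative of Tal1, was level, with 159 and 153 CPM.

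Some genes outside the lists followed the same pattern over classes. Over 16 points, 8 classes in each of 2 libraries that share depth, the Pearson correlation with the mean of the 9 genes other than Vegfa was highest for Fam124b at 0.963, Clec1a at 0.953, Thsd1 at 0.937, Itprip at 0.935 and Prex2 at 0.930, of 16093 genes compared. The genes most like Vegfa were Pou2f3 at 0.981, Trmt9b at 0.980, Igf2 at 0.974, Nr2e3 at 0.973 and Pabpc4l at 0.972. The lowest Vegfa values among these points were in 2 small classes. Erythroid-like nuclei had 54.0 and 13.5 CPM on 11 and 2 counts, and immune-like nuclei 39.4 and 46.8 CPM on 37 and 51 counts. How far the correlations rest on these few counts was not tested. Of the 9 genes other than Vegfa, each part of their own mean, 8 ranged from 0.789 for Flt1 to 0.936 for Erg, while Tal1 was at -0.36.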

How the data were processed

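Single-nucleus ATAC-seq libraries of Enl-WT and Enl-T1 kidneys, 1 each, were used. The authors aligned reads to mm10 and called peaks per library with Cell Ranger ATAC 2.1.0 (submitters' processing notes). The deposited values are raw counts per peak and barcode, and 80.1% and 81.2% of them were 2, since both ends of a fragment were counted, so intervals were taken on counts divided by 2. The libraries held 138176616 (Enl-WT) and 110265593 (Enl-T1) such counts.

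Shared regions held 88.8% and 94.9% of counts. Those open in 0.5% of nuclei or more were reduced by latent semantic indexing (components 2 to 30, scikit-learn 1.9.0) and clustered (15 neighbours, leidenalg 0.10.2, resolution 1). A cluster was named for the marker list with the highest mean log2 ratio to the median cluster, if that was at least 0.4 with 3 markers raised by 0.5 at 5 CPM and a lead of 0.1. Doublets were kept, because the study states no removal, and were left out as an alternative. Sums were scaled to counts in shared regions, and genes or regions with at least 100 counts over both libraries were compared. Poisson, conditional and Clopper-Pearson 95% intervals were used (scipy 1.17.1), and the ratio was tested on simulated data. With 1 library per group no test was made.

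The 10 genes, the lists and the naming rule were chosen with earlier results of these data known. All 10 genes are named, with their start-site and most counted regions, the 5 lowest and 5 highest regions, the most counted peak of each library alone, list genes past 1.5-fold whose interval left out 0, and the 5 most alike genes. The Tek and Erg regions in clusters 0 and 2, the regions with printed sequence and the other list genes named were chosen after their values were seen.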

Additional observations from a re-analysis of the deposited data

Results flagged for a closer look

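Fli1 stood on opposite sides of 0 in 2 groups of nuclei. Between cluster 2 of Enl-WT and cluster 0 of Enl-T1 its log2 ratio was 0.21 (0.07 to 0.36), and in stroma-like nuclei it was -0.10 (-0.18 to -0.01). Both counting intervals left out 0 on opposite sides, and the difference between the groups was not tested. Per kb of peak both were above 0, at 0.40 (0.25 to 0.55) and 0.09 (0.005 to 0.18), so the opposite directions were not seen per kb.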

How the results depend on the processing

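No paired analysis was possible because each group is 1 library. Of the values for the main comparisons, 131 stayed within their intervals under the alternatives and 20 moved, and of the other values 533 stayed, 83 moved and 1 reversed. Fli1 reversed: with regions within 1 kb of a start site its endothelial-over-other ratio in Enl-T1 was -0.39. With these regions Vegfa was 0.40 in endothelial-like nuclei, 0.20 in all nuclei and 0.24 in stroma-like nuclei, and 1 gene passed 1.5-fold between the libraries (Fli1, -0.74). Tal1 has no shared region there and gave no value. With a marker gate 1 gene passed (Sox7, -0.60), the endothelial shares were 5.42% and 2.26%, and the median endothelial-over-other ratios were 1.74 and 1.63. These medians were 2.41 and 2.45 with TMM scaling, 1.64 and 1.77 as thinned shares of nuclei, and 1.74 in Enl-T1 with 80% reciprocal overlap. Vegfa over all nuclei was 0.20 with every peak, 0.0048 thinned and 0.24 per kb of peak, and thinned it was -0.40 in clusters 10 and 12. Per kb it was 0.25 in clusters 0 and 2 and 0.22 among stroma-like ones. The per-kb alternative was chosen after seeing the data. Across alternatives, the endothelial-like ratio between libraries ran from -0.55 to 0.45 for Sox17 and from -0.46 to 0.01 for Tek. Both low ends came with every peak of each library counted, which adds the peaks called in 1 library alone. Flt1 was below 0 in all 14 settings. The causes were not tested. Of 69 regions, 23 had under 100 counts and were not compared.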
